A study of Mus musculus with 6 samples.

Results

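Endothelial cells carry the molecules by which leukocytes stop on a vessel wall and pass through it. E-selectin (Sele) and P-selectin (Selp) let leukocytes roll, the immunoglobulin family members Vcam1, Icam1 and Icam2 hold them through integrins, and Pecam1, VE-cadherin (Cdh5), F11r, Jam3 and Esam join neighbouring endothelial cells and are passed during transmigration. In cultured endothelium, inflammatory cytokines acting through NF-kappaB induce Sele, Vcam1 and Icam1, and atherosclerotic plaques are known for carrying Vcam1. Probes of the 10 genes were found in the authors' deposited intensity table by RefSeq accession, or else by gene symbol, with older synonyms allowed. The genes were measured by 12 of the 39362 probes used and make up 10 of 35027 genes and unnamed probes, counted as features after keeping the brightest probe of each gene. Vcam1 and Sele had 2 probes each and the other 8 genes had 1.

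The 6 samples were aorta RNA of mice on a high-fat diet, 3 labelled ApoE KO at 32 weeks of age and 3 labelled C57BL6 (WT) at 24 weeks. ApoE KO mice lack apolipoprotein E, a ligand for the clearance of remnant lipoproteins, and atherosclerotic lesions were noted in their aortas and not in the WT aortas. The labels of both groups give the genetic background C57BL6 db/+, which means 1 mutant allele of the leptin receptor gene, while the Cy5 source names of both groups read 9 weeks, in conflict with those ages. The labels do not say whether aortas were pooled. The growth protocol starts the diet at 8 weeks of age in both groups and keeps it for 16 weeks, which gives the labelled age of the WT mice but not that of the ApoE KO mice. Headings of 3 arrays that name neither group mention 24 weeks of diet and a vehicle. The effect of genotype therefore cannot be told apart from effects of age, vehicle or time on the diet. Each array compared the Cy5-labelled RNA of 1 sample with a common Cy3-labelled reference, described as RNA of high-fat-diet C57BL6 controls, and all values are log2 ratios to that reference. Each array had values for 39480 to 39551 probes, and precision is limited by having 3 arrays per group. The labels call the 3 samples of a group biological replicates, and p-values measure the spread between them.

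The targeted gene followed the labels. Apoe had log2 ratios of -1.31, -1.21 and -1.31 in ApoE KO and 0.00, -0.32 and 0.12 in WT (log2 fold change -1.21 ± 0.13, limma adjusted p 0.00649), although nothing here says whether its probe lies in the deleted part. The smooth muscle markers Acta2 and Tagln had reference intensities far above the median of 0.143 over all features, with levels (mean intensity over own and reference RNA) of 189 and 152 in the deposited arbitrary units, so the tissue label had its defining markers. The spread of all ratios was wider in ApoE KO (SD 0.236 to 0.259) than in WT (0.076 to 0.136), and intensities had been rounded to 0.01 before the ratios were formed. Ratios therefore move in coarse steps for dim probes, and the size of 1 step is given below where it matters. Bulk aorta RNA cannot tell fewer cells of a type from less RNA per cell.

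Of the 10 genes, 6 rose, 1 fell and 3 did not pass in ApoE KO against WT (limma, adjusted p under 0.05 over all 35027 features). Over all features 6.73% rose and 8.00% fell, 14.7% in all. The median log2 fold change was 0.21 for the 10 genes and -0.02 for all features. At a level of at least 0.5, where rounding matters less, the background was much higher: 19.0% of 9034 features rose and 24.5% fell, together 43.4%. There 7 of the 10 genes were tested, and Vcam1, Icam1, Sele, F11r and Esam rose while Jam3 fell. Groups did not overlap for 7 genes, and 29.3% of all features had groups that did not overlap. After quantile normalization 4.71% of features were called, 2.49% higher and 2.23% lower, and of the 10 genes only Sele and Vcam1. Fold changes are given below as ApoE KO minus WT in log2 units, ± the SE of the fit, n = 3 per group.

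**Figure D1:**
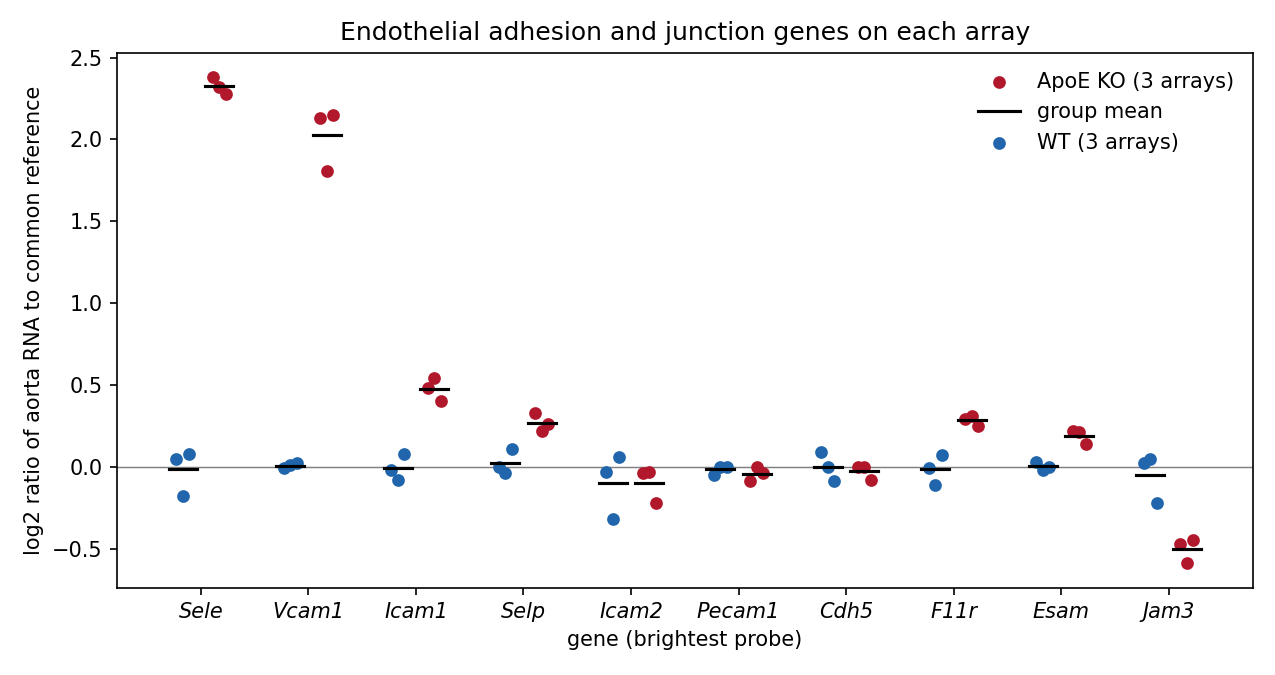
Log2 ratio of aorta RNA to the common reference (vertical axis) for the 10 genes, with 1 point per array, ApoE KO in red and WT in blue, and a bar at each group mean. Sele and Vcam1 stand apart, with ApoE KO points between 1.81 and 2.38. Jam3 is the gene whose ApoE KO points, -0.59 to -0.45, all lie below WT.

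Sele, the selectin made by activated endothelium for leukocyte rolling, had the highest fold change of the 10 when the brightest probe of each gene was used. Averaging the probes of a gene turned the order, to 1.36 for Sele and 2.07 for Vcam1 (log2 fold changes). Its log2 ratios, in order of replicate number here and below, were 2.38, 2.32 and 2.28 in ApoE KO, whereas WT had 0.05, -0.18 and 0.08. All ApoE KO arrays lay far above all WT arrays, and the ApoE KO values were close together (SD 0.0516). Sele was 5.08-fold higher in ApoE KO, with a log2 fold change of 2.34 ± 0.081 (adjusted p 0.000675), and it ranked 27 from the top among 35027 features. These values come from the brighter probe, MMT00003561, whose reference intensity was 0.92. A second probe, NM_011345, had a reference intensity of 0.0333, at which 1 rounding step is 0.38 on the log2 scale. It read 0.42, 0.32 and 0.42 in ApoE KO and 0.00 on each WT array, a difference of about 1 step whose exact size is not resolved. On the ApoE KO arrays the brighter probe read higher than this one by 1.86 to 2.00, well over 1 step. Both probes pointed upward but disagreed in size, and the cause was not tested. The 5.08-fold rise therefore rests on the brighter probe. Quantile normalization, which gives all arrays 1 common distribution of ratios, lowered the change to 1.49 (2.81-fold, adjusted p 0.00895). Since ratios spread more widely in ApoE KO than in WT, it narrows the spread in ApoE KO and widens that in WT by construction. Smaller fold changes and lost calls after it, here and below, are therefore partly built in.

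Vcam1, the endothelial and smooth muscle ligand of the integrin made from Itga4 and Itgb1 on monocytes and lymphocytes, rose by 2.03 ± 0.1 on the log2 scale, which is 4.07-fold (adjusted p 0.0011). Its log2 ratios were 2.13, 1.81 and 2.15 on the ApoE KO arrays and -0.01, 0.01 and 0.02 on the WT arrays. The WT samples matched the reference closely, and ApoE KO replicate 2 was the lowest of the ApoE KO arrays. A second probe, L12541, repeated this array by array: it read 2.13, 1.77 and 2.20 in ApoE KO and -0.05, 0.05 and -0.24 in WT. The probes differed by at most 0.05 on an ApoE KO array and 0.26 on a WT array. The second probe rose by 2.11 ± 0.15 (adjusted p 0.00228 over all 39362 probes, of which 14.1% were called, 6.44% higher and 7.62% lower). After quantile normalization the log2 fold change of Vcam1 was 1.30, or 2.46-fold (adjusted p 0.00384). The 95% intervals of Sele (2.13 to 2.56) and Vcam1 (1.75 to 2.30) overlapped, while every ApoE KO ratio of Sele was above every one of Vcam1.

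**Figure D2:**
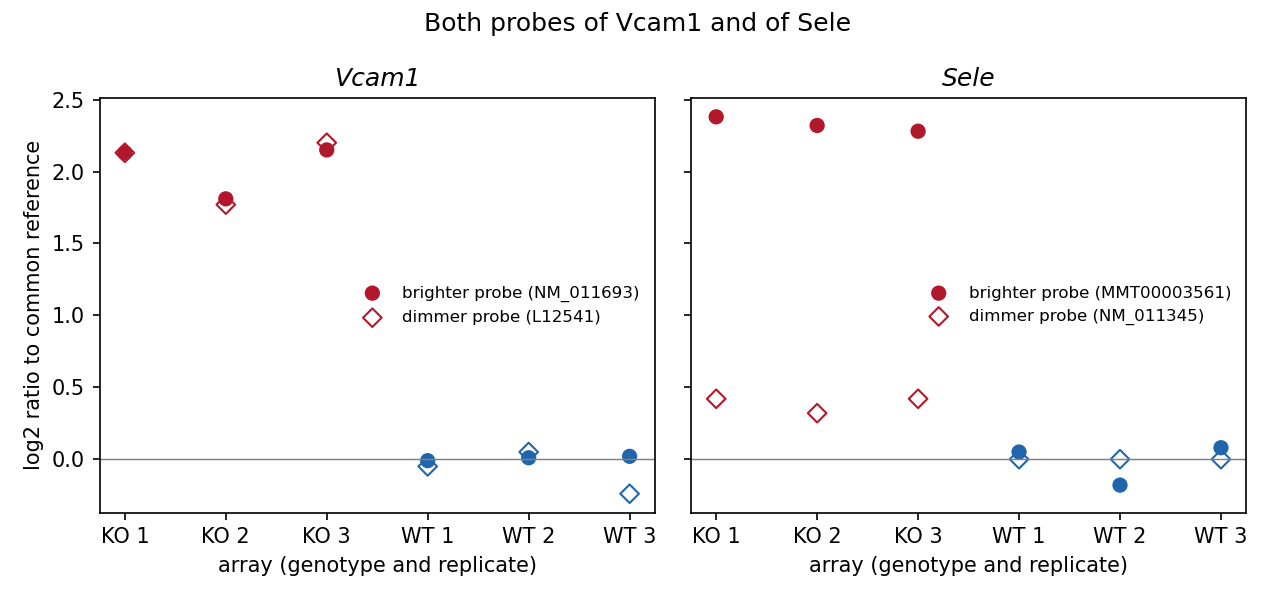
Log2 ratio to the common reference on each of the 6 arrays for both probes of Vcam1 (left) and of Sele (right), filled circles for the brighter and open diamonds for the dimmer probe, ApoE KO in red and WT in blue. The Vcam1 probes nearly coincide on the ApoE KO arrays, whereas the dimmer Sele probe reads 0.32 to 0.42 where the brighter one reads 2.28 to 2.38.

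Icam1, the ligand of the leukocyte integrins built on Itgb2, rose far less than Vcam1. It had log2 ratios of 0.48, 0.54 and 0.40 in ApoE KO and -0.02, -0.08 and 0.08 in WT. All ApoE KO values lay above all WT values, and the SD was 0.0748 in ApoE KO and 0.0807 in WT. The gene was 1.39-fold higher (0.48 ± 0.06, adjusted p 0.0105), and its 95% interval of 0.32 to 0.63 did not reach that of Vcam1. The call was lost after quantile normalization (adjusted p 0.088). Icam2, the constitutive endothelial relative of Icam1, did not pass. Its ratios were -0.04, -0.03 and -0.22 in ApoE KO and -0.03, -0.32 and 0.06 in WT, so the groups overlapped completely. The log2 fold change was -0.0046 with a 95% interval of -0.33 to 0.32, wide because WT replicate 2 and ApoE KO replicate 3 were low.

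Selp, the selectin stored in endothelial Weibel-Palade bodies and platelet granules, was 1.18-fold higher. The log2 ratios were 0.33, 0.22 and 0.26 in ApoE KO and 0.00, -0.04 and 0.11 in WT. All ApoE KO values were above WT, but at a reference intensity of 0.397 a single rounding step was 0.036. The log2 fold change was 0.24 ± 0.05 (adjusted p 0.0433). The call was lost after quantile normalization (0.296), with trend and robust variance estimates (0.0527) and without any 1 array other than WT replicate 3, that is without ApoE KO replicate 1, 2 or 3 or WT replicate 1 or 2 (adjusted p 0.0825 to 0.135).

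The promoters of genes that rose are shown because NF-kappaB and AP-1 are known to act on adhesion genes. RefSeq windows (GRCm38.p6) were at hand for 4 of the 10 genes, namely Sele, Selp, Icam1 and F11r. The 250 bases before the annotated start are printed 5′ to 3′ for both selectins and Icam1, all on the plus strand. Capitals mark matches to GGANNTTCC (a kappaB-like motif), TGANTCA (an AP-1-like motif with any centre base) or TATAAA, each searched on both strands.
Sele, chr1:164047984-164048233: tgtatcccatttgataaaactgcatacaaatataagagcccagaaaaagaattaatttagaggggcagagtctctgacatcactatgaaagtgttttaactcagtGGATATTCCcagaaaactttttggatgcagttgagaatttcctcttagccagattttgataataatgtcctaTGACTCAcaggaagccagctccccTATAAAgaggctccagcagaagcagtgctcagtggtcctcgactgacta
Icam1, chr9:21015690-21015939: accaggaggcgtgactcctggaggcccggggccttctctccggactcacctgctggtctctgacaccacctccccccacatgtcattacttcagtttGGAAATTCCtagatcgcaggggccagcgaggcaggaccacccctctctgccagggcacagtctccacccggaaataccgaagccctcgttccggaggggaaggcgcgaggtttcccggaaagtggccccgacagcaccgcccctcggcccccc
Selp, chr1:164115014-164115263: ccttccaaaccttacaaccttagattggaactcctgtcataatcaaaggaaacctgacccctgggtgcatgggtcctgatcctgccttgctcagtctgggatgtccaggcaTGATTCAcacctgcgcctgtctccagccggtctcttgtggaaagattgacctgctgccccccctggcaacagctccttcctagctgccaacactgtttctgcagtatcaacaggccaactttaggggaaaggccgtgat

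GGANNTTCC matched in Sele as GGATATTCC, beginning 145 bases before the start, and in Icam1 as GGAAATTCC, beginning 153 bases before it. The Icam1 match reads as the motif on both strands. This motif was in 3.59% of the 32851 RefSeq windows of the same length and had no match in the windows of Selp and F11r. TGANTCA, held by 6.75% of windows, matched in Sele as TGACTCA (73 bases before the start), in F11r as TGAGTCA (109) and in Selp as TGATTCA (139). The Selp match has T at its centre, where those of Sele and F11r have C and G. TATAAA, held by 12.4%, matched in Sele at 49 bases. The kappaB-like and AP-1-like motifs were chosen because NF-kappaB and AP-1 are known to act on adhesion genes, and other forms of the kappaB motif were not searched. The matches are therefore no independent finding, and no enrichment is read from them. A match describes letters, not binding.

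The junction molecules did not move together. Pecam1 and Cdh5, the common markers of endothelial junctions, did not pass. Pecam1 had log2 ratios of -0.09, 0.00 and -0.04 in ApoE KO and -0.05, 0.00 and 0.00 in WT, and Cdh5 had 0.00, 0.00 and -0.08 against 0.09, 0.00 and -0.09. The groups overlapped for both genes, and several arrays read exactly as the reference. Their 95% intervals were -0.10 to 0.05 for Pecam1 (log2 fold change -0.03) and -0.17 to 0.12 for Cdh5 (-0.02). Reference intensities were 0.313 and 0.167, above the median of 0.143 over all features but below 0.5, and 1 rounding step was 0.045 and 0.084. The files used give no detection flags, so how much of this signal lay above background is unknown.

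F11r, the junctional adhesion molecule JAM-A, also carried by leukocytes and platelets, was 1.23-fold higher. It read 0.29, 0.31 and 0.25 in ApoE KO and -0.01, -0.11 and 0.07 in WT, with no overlap, on a bright probe (reference intensity 19.9). Its log2 fold change was 0.30 ± 0.053 (adjusted p 0.0281). Esam, an adhesion molecule of endothelial tight junctions and platelets, was 1.13-fold higher, the smallest called change of the 10. Its ratios of 0.22, 0.21 and 0.14 lay above the WT ratios of 0.03, -0.02 and 0.00 (0.18 ± 0.028, adjusted p 0.0191). Both calls were lost after quantile normalization (0.182 for F11r and 0.453 for Esam). F11r also lost its call without ApoE KO replicate 1, 2 or 3 or WT replicate 1 (0.0841 to 0.103), and Esam without ApoE KO replicate 1 or 2 or WT replicate 2 or 3 (0.0633 to 0.0757).

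Jam3, the junctional adhesion molecule JAM-C, which smooth muscle and fibroblasts carry beside endothelium, was the one gene that fell. Its log2 ratios were -0.47, -0.59 and -0.45 in ApoE KO and 0.02, 0.05 and -0.22 in WT. Every ApoE KO array was below every WT array, and WT replicate 3 was the WT array nearest to them. Jam3 was 1.37-fold lower (-0.45 ± 0.089, adjusted p 0.0375) on a bright probe with a reference intensity of 18.6. The call was lost after quantile normalization (0.171) and without ApoE KO replicate 1, 2 or 3 or WT replicate 1 or 2 (0.105 to 0.113). Its relative Jam2, also a junctional adhesion molecule, was among the genes that rose (0.55 ± 0.077, adjusted p 0.0149).

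**Figure D3:**
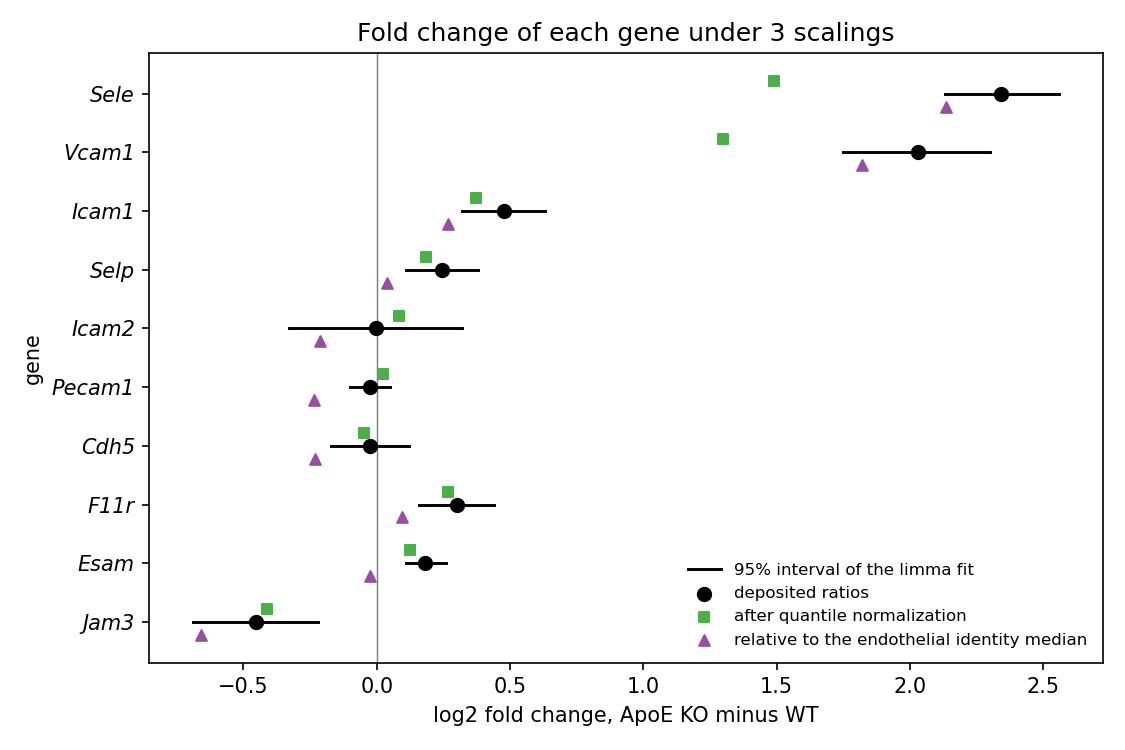
Log2 fold change of ApoE KO minus WT (horizontal axis) for each gene: black circles with the 95% interval of the limma fit (n = 3 per group), green squares after quantile normalization, purple triangles relative to the array's median of endothelial identity genes. Sele and Vcam1 stay above 1 in all 3 scalings, while Esam moves from 0.18 to -0.03 in the last.

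Markers of several cell types that carry these molecules moved as well. Of 24 endothelial identity genes without any of the 10, 7 (29.2%) rose and 0 fell, with a median log2 fold change of 0.24. Beside this and the lists below stand the shares over all features, 6.73% higher and 8.00% lower. In the fit at a level of at least 0.5 they were 19.0% and 24.5%. Plvap, a component of endothelial fenestrae, was at 0.63, the transcription factor Sox17 at 0.53 and the von Willebrand factor gene Vwf, on a dim probe with a level of 0.161, at 0.47. The other 17 were not called. Among them were the bright Eng (level 16.1) at 0.04, Erg (3.22) at -0.04 and Tie1 (3.14) at 0.27, named after their values were seen. The median log2 ratio of the 24 genes was 0.16 to 0.21 on ApoE KO arrays and -0.09 to 0.04 on WT arrays. Their summed level was 47.1 to 50.9 against 38.7 to 42.9, a sum that weighs bright genes such as Plvap (level 8.27) most. Quantile normalization ended the calls of Plvap, Sox17 and Vwf (adjusted p 0.0537, 0.0526 and 0.62) and that of Vwf in 3 of the 6 fits without 1 array (up to 0.0649). The part of this shift in the small changes of Selp, F11r and Esam was not tested.

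Relative to the median of endothelial identity genes on the same array, Sele was higher by 2.14, Vcam1 by 1.82 and Icam1 by 0.27 on the log2 scale, with no overlap between groups. Selp and Esam overlapped, with differences of 0.04 and -0.03. F11r was at 0.08 to 0.11 in ApoE KO and -0.05 to 0.07 in WT, and its difference of 0.09 did not pass (adjusted p 0.206). This scale lowers every fold change by the same amount, so changes as large as those of Sele and Vcam1 could not be lost on it. Of all features 68.4% were called lower on it and 4.05% higher, together 72.4%, and 69.7% had all ApoE KO values below all WT values. A gene near 0 therefore comes to lie below WT by construction, and nothing is read from it for Pecam1, Cdh5 and Icam2. Pecam1, at -0.29 to -0.20 in ApoE KO and -0.09 to 0.09 in WT, and Cdh5, at -0.24 to -0.21 and -0.09 to 0.09, were among these features, as was Icam2 (-0.38 to -0.24 and -0.23 to 0.06), and their own ratios overlapped between groups, as given above. Jam3 moved down by the same built-in amount, to a difference of -0.66.

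**Figure D4:**
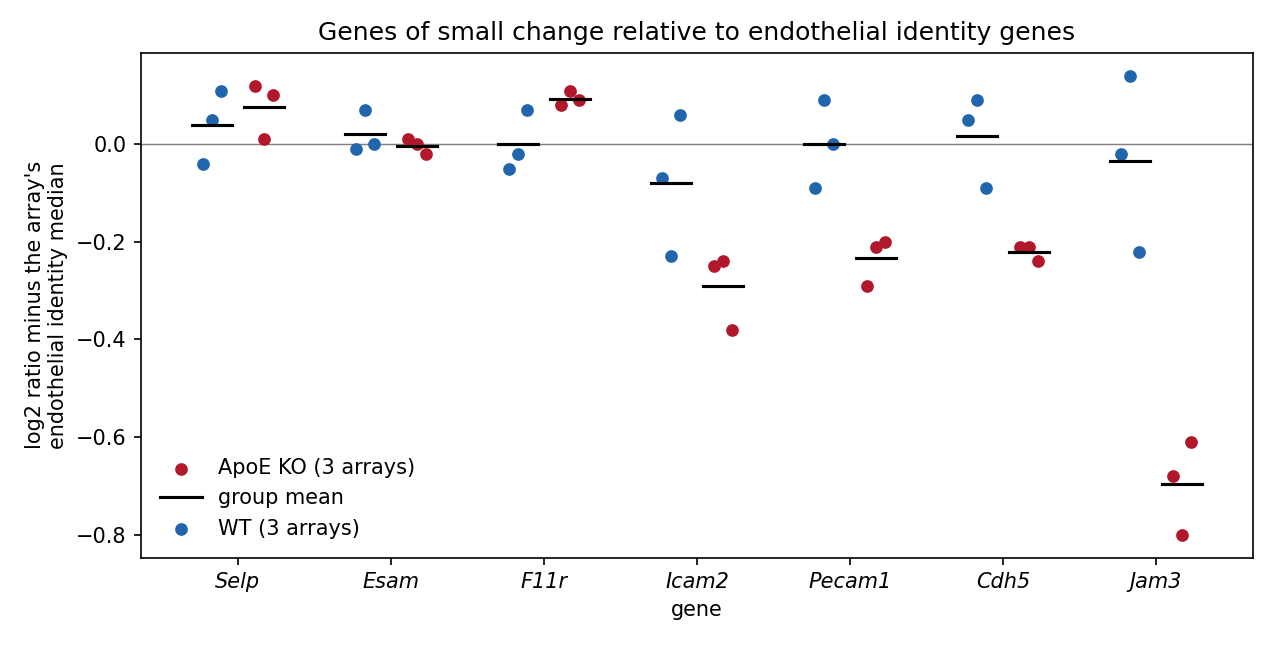
Log2 ratio minus the array's median over 24 endothelial identity genes (vertical axis) for 7 of the 10 genes, 1 point per array, ApoE KO in red and WT in blue, bars at group means. Selp and Esam overlap between groups. Icam2, Pecam1, Cdh5 and Jam3 lie below WT on all 3 ApoE KO arrays, as 69.7% of all features do on this scale, and of these 4 only Jam3 did so in its own ratios.

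Platelets carry Selp, F11r, Esam and Pecam1. Of 12 platelet and megakaryocyte markers 6 rose and 0 fell, with a median of 0.36 and a summed level of 21.2 to 25.0 in ApoE KO and 14.4 to 17.3 in WT. Clec1b, the podoplanin receptor, was at 1.08, the chemokine gene Ppbp at 0.78 and the glycoprotein gene Gp9, on a dim probe (level 0.144), at 0.29. Their calls were lost after quantile normalization (0.231, 0.505 and 0.0909), and those of Ppbp and Gp9 in 4 of the 6 fits without 1 array. Gp6 and Treml1 read 0.00 on every array, at levels of 0.117 and 0.0967. The part of platelets in the change of Selp was not tested.

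Smooth muscle cells carry Vcam1 and Jam3. Their markers fell in 7 of 10 and rose in 0, with a median of -0.62 and a summed level of 389 to 443 in ApoE KO and 645 to 692 in WT. Lmod1, an actin nucleator, was at -0.72, the calponin Cnn1 at -0.73 and the transgelin Tagln at -0.63. The median of these markers and the fold change of Jam3 (-0.45) had the same sign, and their connection was not tested. Macrophages carry Icam1, F11r and Pecam1, and some carry Vcam1. Their markers rose in 13 of 15 and fell in 0, with a median of 1.43 and a summed level of 289 to 334 against 71.5 to 84.4. The scavenger receptor Msr1, on a dim probe (level 0.0857, 1 rounding step 0.2), read 1.1 on every ApoE KO array and 0.0 on every WT array. Equal readings after such rounding do not measure its precision. The protease Ctss was at 3.21 and the protease Lgmn at 1.42. Not called were Cd68 (level 0.539), at 0.15 (adjusted p 0.0664), and Mertk, on a dim probe (level 0.0419), at 0.06. Fibroblast markers rose in 3 of 8 (Lum at 1.76, Col1a1 at 0.51, Col14a1 at 0.34) and fell in 1 (Serpinf1 at -0.46). Col1a1, Col14a1 and Serpinf1 lost their calls after quantile normalization (0.121, 0.453 and 0.22), and Col14a1 and Serpinf1 passed in 2 of the 6 fits without 1 array. The parts of macrophages and fibroblasts in the rise of Vcam1, Icam1 and F11r were not tested. Heart muscle markers were higher in 1 of 8, Nppa at 0.46, and fat cell markers lower in 1 of 8, Lep at -0.14, both on dim probes with levels of 0.11 and 0.0945. That is 12.5% of each list, against 6.73% of all features higher and 8.00% lower. The heart list had a median of 0.49, but its median ratio varied widely between arrays, from -0.50 to 0.71 in ApoE KO and -0.43 to 0.04 in WT. Its summed level was 16.2 to 31.6 in ApoE KO and 14.9 to 24.2 in WT. The part of uneven heart muscle RNA in the small changes given here was not tested. The call of Nppa was lost after quantile normalization (0.105) and kept in 1 of the 6 fits without 1 array.

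**Figure D5:**
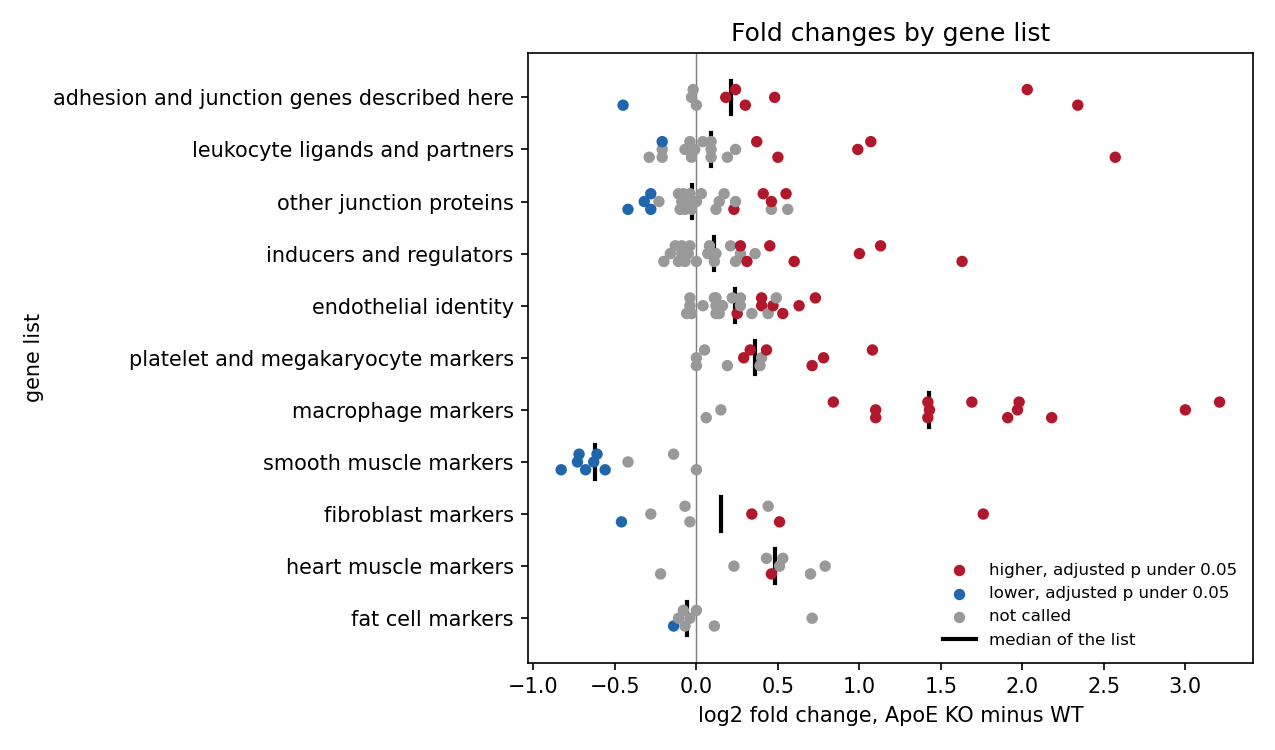
Log2 fold change of ApoE KO minus WT (horizontal axis) for the 10 adhesion and junction genes and for the lists of ligands, junction partners, regulators and cell type markers, 1 point per gene, red for higher and blue for lower at an adjusted p under 0.05, grey for genes not called, bars at list medians. Macrophage markers have the highest median at 1.43 and smooth muscle markers the lowest at -0.62.

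Leukocyte ligands and partners of these molecules rose in 5 of 19 genes (26.3%) and fell in 1 (5.26%), with a median of 0.09. The shares over all features were 6.73% and 8.00%, and 19.0% and 24.5% in the fit at a level of at least 0.5. Itgax, an integrin chain of macrophages and dendritic cells that pairs with Itgb2 to bind Icam1, was at 2.57 ± 0.078. The hyaluronan and E-selectin receptor Cd44 was at 1.07 ± 0.033. Itgal, the integrin chain that binds Icam1 and Icam2, was at 0.99 ± 0.1, Selplg, the main ligand of Selp, at 0.50 ± 0.042 and the membrane linker Ezr at 0.37 ± 0.057. Glg1, an E-selectin ligand, was lower at -0.21 ± 0.033. The chains of the main Vcam1 receptor were not called: Itga4 was at 0.04 with a level of 0.237, and Itgb1 at -0.21 with a 95% interval up to 0.13. Of the other chains of Icam1-binding integrins, Itgb2, on a very dim probe (level 0.068), was at 0.24 (adjusted p 0.201) and Itgam, on a bright one (6.75), at -0.29 (0.134), neither called. These 4 were chosen after their values were seen. Itgal, Ezr and Glg1 lost their calls after quantile normalization (0.248, 0.344 and 0.211), and Ezr and Glg1 also in 3 and 4 of the 6 fits without 1 array (adjusted p up to 0.0765 and 0.0788).

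Other junction proteins divided evenly, with 4 of 25 higher, 4 lower (16.0% each) and a median of -0.03. This lies between the shares over all features (6.73% and 8.00%) and those at a level of at least 0.5 (19.0% and 24.5%). Higher were Gja4, a connexin of arterial endothelium (0.41 ± 0.046), Jam2, the small GTPase Rap1b (0.46 ± 0.07) and the tight junction protein Ocln (0.23 ± 0.038). Lower were the scaffold Magi1 (-0.42 ± 0.038), Cd99l2, a relative of the transmigration molecule CD99 (-0.28 ± 0.031), vinculin, Vcl (-0.32 ± 0.064), which smooth muscle holds in large amounts, and the polarity protein Pard3 (-0.28 ± 0.06). After quantile normalization the call of Magi1 was kept (0.0378) and the other 7 were lost (0.074 for Gja4 to 0.352 for Ocln). Among fits without 1 array, Gja4, Magi1 and Cd99l2 passed in 6 of 6, Jam2 in 5, Rap1b and Ocln in 2 and Vcl and Pard3 in 1.

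Inducers and regulators of adhesion genes rose in 7 of 25 (28.0%) and fell in 0, with a median of 0.11. Of all features 6.73% rose, and 19.0% in the fit at a level of at least 0.5. Nfkbie (1.13 ± 0.067) and Tnfaip3 (1.00 ± 0.077), feedback inhibitors of NF-kappaB signalling, and the cytokine gene Il1b (1.63 ± 0.17) had the lowest p values, at 0.00142, 0.00271 and 0.00629 after adjustment. Nfkbia, another such inhibitor, was not called on a bright probe (level 6.71), at 0.08 (adjusted p 0.465). The probe of Nfkbie was dimmer (level 0.484). Il1b lost its call after quantile normalization (0.13). The other cytokine genes of the list did not pass: Tnf was at -0.09 (adjusted p 0.1), Il1a at -0.05, Ifng at 0.36 (0.0663), Il4 at 0.11 and Il13 at -0.16, the last 4 at levels of 0.123 or less. Of NF-kappaB subunit genes, Nfkb2 rose (0.31 ± 0.043, adjusted p 0.0142), with its call lost after quantile normalization (0.0814) and in 3 of the 6 fits without 1 array, whereas Rela (-0.13), Relb (0.07) and Nfkb1 (0.21) did not pass. Apart from Il1b these cytokine and subunit genes, and Nfkbia, were named after their values were seen.

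The genes most like the 3 members of lowest p were sought among 8083 named genes with a level of at least 0.5, by the root mean square difference of the log2 ratios over the 6 arrays. Cd53, a leukocyte tetraspanin, lay nearest to Sele (0.046), with ratios of 2.39, 2.32 and 2.38 in ApoE KO, followed by the myeloid inhibitory receptor Pirb (0.051) and the anti-apoptotic Bcl2a1d (0.054), which has near-identical copies in the genome. Fabp5 (0.11), a fatty acid binding protein, the potassium channel gene Kcnk13 (0.12) and the coagulation factor gene F7 (0.12) lay nearest to Vcam1. Stard5 (0.024), a lipid transfer protein, the lamin Lmnb1 (0.028) and Edem2 (0.034), of protein quality control in the endoplasmic reticulum, lay nearest to Icam1. Level includes the signal of the ApoE KO arrays, so genes high there pass the minimum more easily. Fabp5 (level 0.786) and Kcnk13 (0.636) lay close above it. With 6 arrays in 2 groups, such likeness is mostly a like fold change.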

How the data were processed

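Two-colour Agilent arrays of 3 ApoE KO and 3 WT aorta samples were used, grouped by the genotype label of the Cy5 channel. Per the labels' protocols, Trizol-extracted RNA (100 ng) was amplified before labelling. The submitters' processing notes name Agilent Feature Extraction (version 8.5.1.1). Background correction and dye normalization were not given in the sources. For 39556 probes the authors deposited the log10 ratio of the aorta's RNA to the reference, and it was converted to log2. The deposited intensity table gives both channels in arbitrary units, rounded by the authors to 0.01. It has 18 columns of per-sample values. Those of 3 arrays whose headings name neither group, and all p-values, were left unused (12 columns). For 100.0% of 39485 probes the sorted log10 ratios of the C57BL6-headed arrays matched the sorted WT values within 0.002, which set scale and direction for WT, and ApoE KO arrays, with the same dyes in the labels, were taken to run the same way. Centring by the authors is unknown. The median ratio was 0 on every array, but 36.2% to 59.0% of ratios were exactly 0, so this median says little about centring. At a level of at least 0.5 the median was -0.051 to -0.046 on ApoE KO arrays and -0.014 to 0.0 on WT arrays.

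Probes lacking a value on any array (194) were dropped. Probes were named through RefSeq (GRCm38.p6) by accession (6984), symbol (16552) or synonym (2557), 3963 kept the file's name and 9306 had none. The brightest probe of a gene was kept. Level is a probe's reference intensity, averaged over the C57BL6-headed arrays and multiplied by (1 + average ratio) / 2, and a list's summed level per array is the sum of reference intensity times ratio. The comparison used limma 3.58.1 (lmFit, eBayes; R 4.3.3) without covariates, two-sided, with Benjamini-Hochberg adjustment over all features. The fit was tested on simulated data. Alternatives were quantile normalization, centring, level minimums, trend and robust eBayes, array weights, the mean of probes, a replicate block and leaving out each array. Same-numbered arrays did not deviate together (correlations 0.0776, -0.469 and -0.145 over 9034 features), so the numbers were not taken as pairs. Differently numbered arrays had correlations from -0.426 to 0.614, the highest for ApoE KO replicate 2 with WT replicate 3. Whether arrays of the 2 groups shared a batch was not tested. Genes named were all 10 members with every probe, up to 3 called genes per list and direction in order of p and all behind a count of 5 or fewer, and the nearest patterns. The members, lists and tests were chosen with earlier results of these data known. Nos3 and Cldn5 stand in 2 lists. Gja5 and Tnfrsf1b were not measured among the features used.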

Additional observations from a re-analysis of the deposited data

How the results depend on the processing

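Across 16 alternatives, Sele and Vcam1 kept their direction and call, with log2 fold changes of 1.36 to 2.39 and 1.19 to 2.14. Of all features, 5158 were called. The number was 1651 after quantile normalization and 537 after quantile normalization at a level of at least 0.5 (chosen after seeing the data). It was 25367 after centring on endothelial identity genes. By construction this centring moves every fold change by the same amount, and it left a median log2 fold change of -0.23 over all features. With the replicate block 2582 features were called, and 2 of the 10 genes, although the shared numbers do not pair the samples. Of the 10 genes, 7 were called in the main comparison and 2 after either quantile normalization. That method evens out the wider spread of ApoE KO ratios by construction, so some loss of calls is built in. Leaving out each array in turn gave 3 to 6 of the 10 genes and 3516 to 4901 features, with fewer arrays by construction.

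Directions turned for genes near 0 or in one scaling. Icam2 was at 0.083 (probe fit 0.082) after quantile normalization, 0.104 (0.105) after it at a level of at least 0.5, 0.019 with centring on the middle ratios, 0.018 (0.020) with array weights, and from -0.12 to 0.07 without 1 array (0.058 without ApoE KO replicate 3, 0.029 without WT replicate 1, 0.073 without WT replicate 3). Pecam1 was at 0.023 after quantile normalization, Cdh5 from -0.07 to 0.02 when 1 array was left out (0.002 with ApoE KO replicate 3 omitted, 0.02 with WT replicate 1 omitted), and Esam at -0.026 relative to endothelial identity genes. There Icam2, Pecam1 and Cdh5 passed as lower (adjusted p 0.0372, 0.0136 and 0.0133), as 68.4% of all features did. The cause was not tested. Signal over background, which is unknown here, and rounding limit the dim probes of Selp, Pecam1, Cdh5 and the second Sele probe.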
